A study of Homo sapiens with 36 samples.

Results

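The comparison set LNCaP cells treated with AU2-94 at 1 µM for 24 h against LNCaP cells given vehicle for the same time. Its members were chosen by the sample labels alone, and it holds 6 of the 36 libraries of the series, 3 treated and 3 vehicle. LNCaP is an established human prostate cancer line that grows in response to androgen, and AU2-94 is a CDK4-selective inhibitor known here by its code name. RNA was sequenced as total RNA, and a gene's expression was given as a normalised count, that is, reads per gene scaled between libraries by the authors. The cells were treated 24 h after seeding, and all 6 libraries came from wells seeded at the density used for the shorter treatment. The labels of the vehicle wells carry a dose of 2 µM, whereas the study describes the vehicle without one. Each group held 3 biological replicates of 1 cell line, and the labels give the replicate number as a batch, so the spread below is that of 3 cultures and not of donors. Further groups were used for direct contrasts only: AU2-94 at 2 µM for 24 h, atirmociclib (another CDK4-selective inhibitor) at 1 µM for 24 h, and AU2-94 at 1 µM and vehicle at 72 h, each with 3 libraries.

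CDK4, bound to a D-type cyclin, phosphorylates the retinoblastoma protein RB and its relatives, which otherwise hold E2F transcription factors in check. Released E2F factors switch on genes for DNA replication and for entry into S phase, and the MYBL2 and FOXM1 factors then drive the genes of mitosis. LNCaP cells respond to androgen, which induces secretory genes such as KLK3 and lowers several enzymes that inactivate androgens.

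The deposited table covered 29872 genes, of which 16137 had at least 10 normalised counts in at least 3 of the 18 libraries of 24 h and were tested. The total per library was 20675156 to 20824457 in vehicle and 21174354 to 21415388 with AU2-94. Across genes, log2 values of the 6 libraries correlated at 0.981 to 0.985 within a group (6 pairs) and at 0.970 to 0.974 between groups (9 pairs). All 12 luminal prostate markers examined were tested and lay well above the filter, with a summed level of 123250 to 129120 in vehicle and 164330 to 171210 with AU2-94. In contrast, 3 of 7 basal, 4 of 10 fibroblast and smooth muscle, 1 of 6 endothelial and 1 of 10 immune markers passed the filter, and KRT5 and TP63, which define basal cells, were listed at 0 in all 6 libraries. The summed level of the tested basal markers was 2042 to 2290.2 in vehicle and 1387 to 1462 with AU2-94, carried by ITGA6 (-0.73) and DST, while KRT14, at 21.3, 4.35 and 12.6 in vehicle and 40.6, 60.0 and 41.2 with AU2-94, was called higher (log2 fold change 2.02, SE 0.399, adjusted p = 0.000914). The fibroblast and smooth muscle markers summed to 464 to 583 and 487 to 617, and ACTA2 among them was called higher, from 50.9, 59.6 and 80.0 to 190.1, 123 and 177 (log2 fold change 1.35, SE 0.184, adjusted p = 2.33e-05). The tested immune marker lay at 60.8 to 144 in vehicle and 55.2 to 59.8 with AU2-94.

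In a joint limma fit on log2(normalised count + 1), 259 genes (1.61% of those tested) were called higher and 387 (2.4%) were called lower with AU2-94. Calls were limited to genes with a Benjamini-Hochberg adjusted p up to 0.05 whose log2 fold change was 1 or more in either direction. By the adjusted p alone, which is what "rose" and "fell" refer to below, 2305 genes (14.3%) rose and 2180 (13.5%) fell, and 38.1% of genes had an unadjusted p of at most 0.05. The treated and vehicle values did not overlap for 385 of the 387 genes called lower and for 247 of the 259 called higher, against 41.4% of all genes tested. The genes called lower had a median normalised count of 273, beside 412 over all genes tested, and 135 of them belonged to the lists for replication, histones, repair, mitosis and the E2F circuit. The genes called higher had a median of 33.7, and 0 of them belonged to those lists. Of the 16137 genes tested, the largest of those lists held 58 (DNA replication), 49 (kinetochore, condensin and cohesion) and 48 (histones). The repair list held 31, mitotic kinesins and cytokinesis 26, mitotic kinases and entry 22, and APC/C and SCF regulators 18. Deoxynucleotide synthesis held 14, E2F and DP factors 10, cyclins E and A with CDK2 10, and MuvB, MYBL2 and FOXM1 7. In 12 of the genes called higher and 7 called lower, no library of 1 group exceeded 3 normalised counts, so their fold changes depend on the constant added before the logarithm. Protein-coding genes made up 202 of the 259 genes called higher and 325 of the 387 called lower, and long non-coding RNAs made up 57 and 62. Over all 16137 genes tested, 12878 (79.8%) were protein-coding and 3242 (20.1%) were long non-coding RNAs. The counts among called genes were not tested against these shares.

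**Figure D1:**
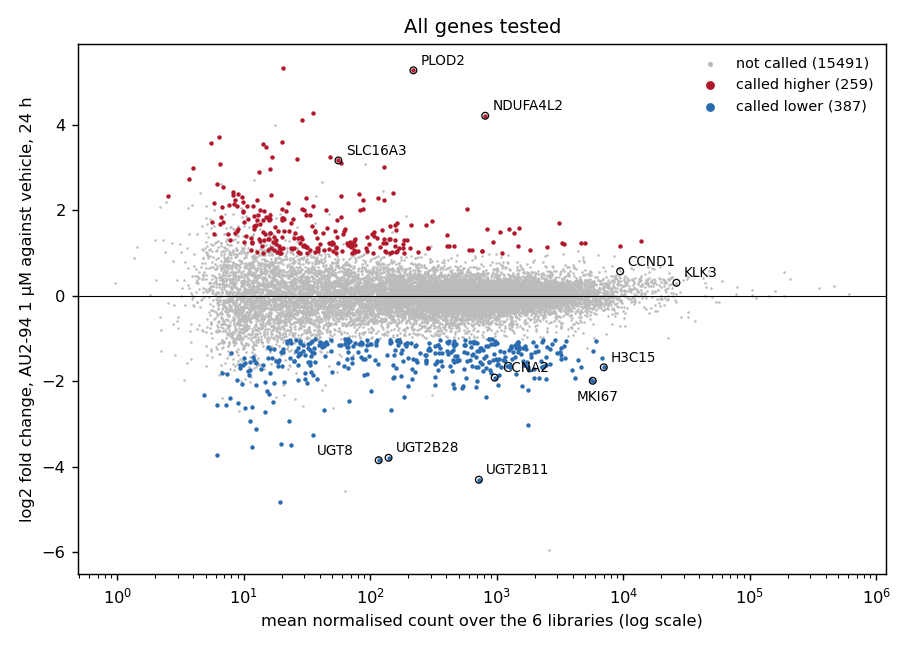
Log2 fold change of every gene tested (AU2-94 at 1 µM against vehicle, 24 h) against its mean normalised count over the 6 libraries on a log axis, 1 point per gene; red points are the 259 genes called higher, blue points the 387 called lower and grey points the rest. Many of the genes called higher lie at low counts (median 33.7, against 273 for those called lower), although the most abundant called genes, such as AIDA and PGK1, are among them.

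The genes that encode the drug's target and its partners did not fall as a group. CDK4 was measured at 2268, 2328 and 2409.7 in vehicle and 2324, 2288 and 2560.1 with AU2-94, and the groups overlapped (log2 fold change 0.03, SE 0.0553, adjusted p = 0.707). CCND1, which encodes cyclin D1, rose from 7440.0, 7547 and 7791 to 11756, 11472 and 10739 (log2 fold change 0.58, SE 0.0434, adjusted p = 1.53e-08). CCND3 fell from 1066, 1056 and 1085 to 784, 714 and 786 (log2 fold change -0.49, SE 0.063, adjusted p = 1.17e-05), and CCND2 was near 0 in all 6 libraries and was not tested. CDK6, the related kinase, was low and scattered, at 185, 31.0 and 122 in vehicle and 105, 116 and 35.8 with AU2-94 (adjusted p = 0.842). Cyclins D1 and D3 thus moved in opposite directions, and the kinase transcripts showed no change beyond their spread, with a 95% interval of -0.08 to 0.15 for CDK4 on the log2 scale. Part of the CDK4 exons (44.2%) lies opposite exons of TSPAN31, and whether the authors counted reads by strand is not stated in the sources used here.

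The pocket proteins, which bind E2F, also diverged. RB1 stood at 1078, 1119 and 1025 in vehicle and 1047, 1007 and 1019 with AU2-94, and its groups overlapped (adjusted p = 0.579). RBL2, which encodes the p130 protein of resting cells, rose from 2249, 2332 and 2272 to 3087, 3132 and 3117 (log2 fold change 0.45, SE 0.0452, adjusted p = 7.06e-07). RBL1, which encodes p107, fell from 727, 727 and 636 to 430.2, 579.6 and 374 (log2 fold change -0.61, SE 0.193, adjusted p = 0.0234), but did not pass without vehicle replicate 1 or 2 or treated replicate 1 or 3 (adjusted p up to 0.115). Among the genes for CDK inhibitors, CDKN1A (p21) fell from 2399.6, 2515 and 2459.5 to 1476, 1844 and 1730.3 (log2 fold change -0.55, SE 0.0933, adjusted p = 0.000215) and CDKN2C (p18) from 442, 438 and 370.0 to 119, 146 and 153 (log2 fold change -1.58, SE 0.215, adjusted p = 2.29e-05). CDKN1B (p27) was 1377, 1407 and 1360.5 in vehicle and 1253, 1377 and 1269.7 with AU2-94, which did not pass the test (adjusted p = 0.395). Of 7 CDK inhibitor genes tested, 3 fell, 0 rose and 1 was called.

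Several E2F genes fell, activators and repressors alike. E2F1, an activator, was 970.2, 984 and 1069 in vehicle and 694, 651 and 649.9 with AU2-94 (log2 fold change -0.60, SE 0.0861, adjusted p = 4.12e-05), so every treated library lay below every vehicle library, although the change stayed under the threshold of 1 for a call. E2F2 fell further, from 601, 475 and 442 to 145, 186 and 186 (log2 fold change -1.55, SE 0.177, adjusted p = 3.16e-06). E2F7 and E2F8, the atypical repressors, fell from 543 ± 62.7 (SD, n = 3) to 187 ± 12.2 and from 509 ± 31.4 to 136 ± 13.9, with log2 fold changes of -1.53 and -1.89. Of 10 E2F and DP genes, 6 fell and 1 rose, with a median log2 fold change of -0.30, beside -0.00323 over all genes tested.

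The cyclins that act after cyclin D separated sharply. CCNE1 (cyclin E1) was 415, 429.5 and 466 in vehicle and 441, 381 and 396 with AU2-94, overlapping groups with an adjusted p of 0.549. CCNE2 (cyclin E2) was 525, 722 and 682 in vehicle and 207, 168 and 248 with AU2-94 (log2 fold change -1.63, SE 0.246, adjusted p = 6.97e-05), with no overlap. The gene shares 37.0% of its exon bases with INTS8 on the opposite strand. CCNA2 (cyclin A2), which partners CDK2 and CDK1, showed the larger fall, from 1584, 1478 and 1505 to 364, 416 and 433 (log2 fold change -1.91, SE 0.141, adjusted p = 1.16e-08), a vehicle level 3.77 times the treated one. CDK2 itself fell by less, from 1546, 1383 and 1415 to 913, 855 and 914 (log2 fold change -0.69, SE 0.0978, adjusted p = 3.35e-05). Of the 10 genes listed as cyclins E and A, CDK2 and regulators, 9 fell, 3 were called lower and the median log2 fold change was -0.70. In bulk RNA, fewer cells in S, G2 and M phase and less of these transcripts per cell cannot be told apart, here and in the replication and mitosis genes below.

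**Figure D2:**
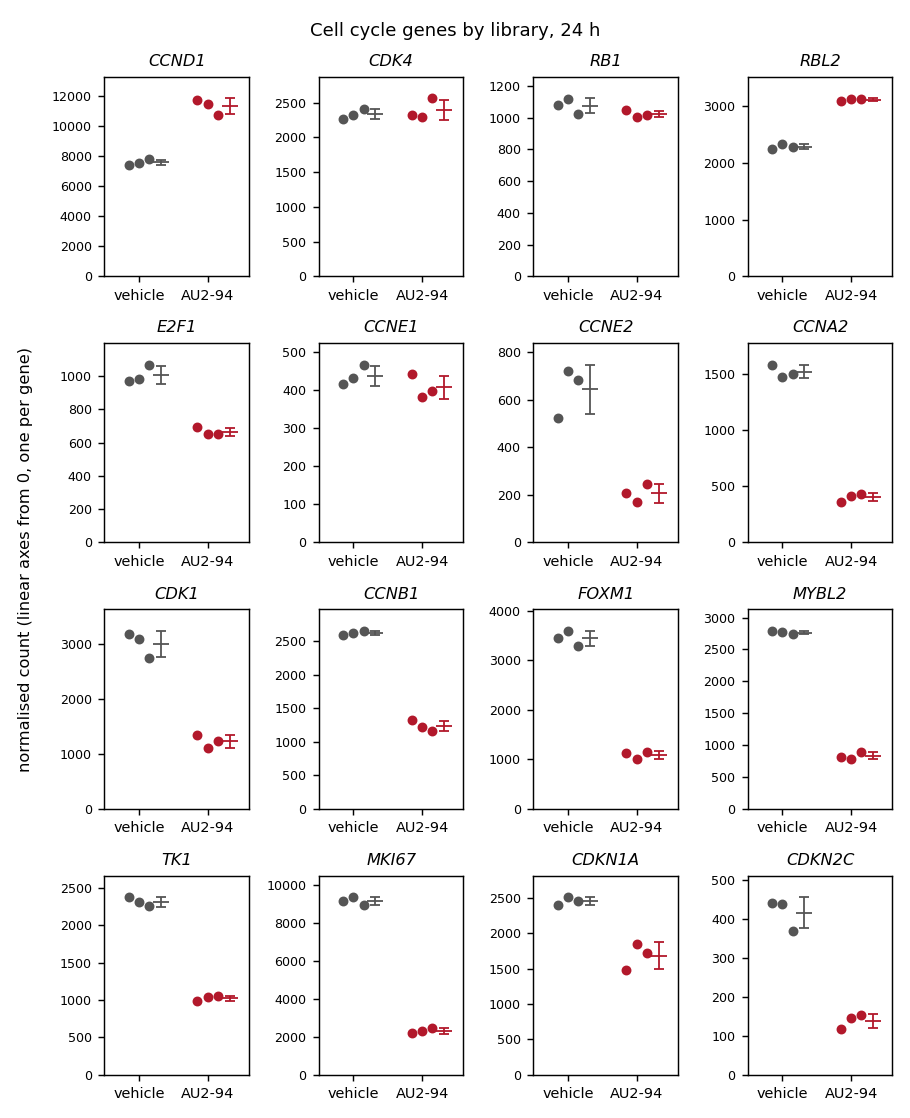
Normalised counts of 16 cell cycle genes in the 3 vehicle libraries (grey) and the 3 libraries treated with AU2-94 at 1 µM for 24 h (red), in replicate order, with the mean and SD (n = 3) beside them; each panel has its own linear axis from 0. CCND1 and RBL2 lie higher with AU2-94, CDK4, RB1 and CCNE1 overlap, and the other genes lie lower in all 3 treated libraries.

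The DNA replication genes fell broadly and by moderate amounts. Of 58 such genes tested, 45 fell, 0 rose and 12 were called lower, with a median log2 fold change of -0.71. The fork protection factor CLSPN went from 1555, 1530.4 and 1498 to 529, 482 and 510.0 (log2 fold change -1.59, SE 0.138, adjusted p = 9.81e-08). CDC45, a part of the replicative helicase, went from 716, 692 and 679.5 to 202, 317 and 284 (log2 fold change -1.40, SE 0.185, adjusted p = 1.6e-05). The helicase RECQL4 and the primase subunit PRIM1 had log2 fold changes of -1.41 (SE 0.162) and -1.33 (SE 0.212). Among 14 genes of deoxynucleotide synthesis, 10 fell and 1 rose (median -0.54), and the members called lower were RRM2, TYMS and TK1. RRM2, the S phase subunit of ribonucleotide reductase, fell from 3728, 3797 and 4113 to 1109, 961 and 951 (log2 fold change -1.95, SE 0.17, adjusted p = 1.08e-07). TK1, which salvages thymidine, fell from 2378, 2309 and 2251 to 983, 1038 and 1049 (log2 fold change -1.18, SE 0.0693, adjusted p = 8.17e-10), and TYMS, which makes thymidylate, from 1965, 1916 and 1884 to 637, 589 and 656 (log2 fold change -1.61). TYMS shares 39.9% of its exon bases with ENOSF1 on the opposite strand. In the homologous recombination and Fanconi anaemia list, 21 of 31 genes fell, 9 were called lower and 0 rose (median -0.64), among them RAD54L (-1.35), FANCI (-1.31), FANCA (-1.30) and EXO1 (-1.29).

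The replication-dependent histone genes, which are made in S phase and supply new chromatin, fell as well, and 34 passed the threshold for a call. Of 59 genes on the list, which lacks H3C14, H3C15 and H2AC19, 48 were tested, 44 fell and 0 rose, with a median log2 fold change of -1.43. Their summed level was 176950, 165800 and 168530 in the vehicle libraries and 73067, 64750 and 74437 with AU2-94. The linker histone gene H1-5 was 9112, 8968 and 8635 in vehicle and 2302, 2087 and 2441 with AU2-94 (log2 fold change -1.97, SE 0.119, adjusted p = 1.09e-09). H2BC14 fell from 2949, 2712 and 2973 to 629.8, 561 and 696 (log2 fold change -2.20, SE 0.171, adjusted p = 2.22e-08) and was the histone gene among the 10 largest falls with a mean of at least 50. By histone class, 2 of 3 H1, 20 of 27 H2A or H2B, 8 of 9 H3 and 4 of 9 H4 genes of the list were called lower. The large cluster on chromosome 6 held 31 of the 34 called genes, of 40 tested there, and the listed genes on chromosome 1 held 3, of 8 tested. H3C15, on chromosome 1 and outside the list, was called lower as well (log2 fold change -1.67, SE 0.0952, adjusted p = 5.2e-10). Single histone values are uncertain, because members are near copies of each other: the whole H3C15 transcript was at least 95% identical to H3C14, and that of H2AC18 to H2AC19. The most abundant genes called lower were H3C15, H2AC18, H2BC12, H1-2 and MKI67, with H3C15 at 10825, 10293 and 10933 in vehicle and 3393, 3089 and 3591 with AU2-94.

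The genes of mitosis fell almost without exception. All 22 mitotic kinase and entry genes tested fell, 17 of them past the call threshold, with a median log2 fold change of -1.31. Of 26 mitotic kinesin and cytokinesis genes, 25 fell and 23 were called lower (median -1.53), and of 49 kinetochore, condensin and cohesion genes, 42 fell, 1 rose and 24 were called lower (median -0.998). PLK1, the kinase of mitotic entry and exit, fell from 2624, 2624 and 2524 to 567, 567 and 665 (log2 fold change -2.11, SE 0.113, adjusted p = 2.31e-10). CDK1, the kinase that triggers mitosis, fell from 3186, 3091 and 2738 to 1346, 1103 and 1228 (log2 fold change -1.29, SE 0.0912, adjusted p = 6.87e-09), and its partner CCNB1 (cyclin B1) from 2591, 2619.7 and 2657 to 1322, 1224 and 1163 (log2 fold change -1.09, SE 0.0702, adjusted p = 2.24e-09). The treated libraries lay below every vehicle library for each of these. AURKB, which corrects chromosome attachment, had a log2 fold change of -2.06 (SE 0.192), and BIRC5, its survivin partner, one of -1.82 (SE 0.164). In the kinesin list the largest fall with a mean of at least 50 was that of CKAP2L (-2.11, SE 0.413), beside KIF20A (-2.08, SE 0.217) and KIFC1 (-1.82, SE 0.146). At the kinetochore the largest falls were those of SPC25 (-2.12, SE 0.241), the separase gene ESPL1 (-2.003, SE 0.25) and the centromeric histone CENPA (-1.89, SE 0.288). MKI67, the proliferation marker Ki-67, went from 9181, 9371 and 8954 to 2179.7, 2296 and 2469 (log2 fold change -1.99, SE 0.0806, adjusted p = 5.68e-12), a vehicle level 3.96 times the treated one.

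The transcription factors of late cell cycle genes fell with them. FOXM1 was 3447, 3589 and 3289 in vehicle and 1133, 997 and 1137 with AU2-94 (log2 fold change -1.66, SE 0.0797, adjusted p = 5.68e-11). MYBL2 was 2789.7, 2767 and 2736 in vehicle and 805, 785 and 889 with AU2-94 (log2 fold change -1.74, SE 0.0915, adjusted p = 2.06e-10). Of the 7 genes of the MuvB core, MYBL2 and FOXM1, 3 fell and 0 rose, the third being LIN52 with a log2 fold change of -0.41 (adjusted p = 0.0288), which did not pass under quantile normalisation (0.0634) or when any library but treated replicate 2 was left out (up to 0.105). The regulators of protein destruction were split: of 18 APC/C and SCF genes, 8 fell and 1 rose (median -0.17). The 4 that fell furthest were UBE2C (-1.68, SE 0.101), CDC20 (-1.67, SE 0.0728), CCNF (-1.49, SE 0.0727) and FBXO5 (-1.31, SE 0.125). Of the CDC20 transcript, 84.6% was at least 95% identical to the pseudogene CDC20P1.

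**Figure D3:**
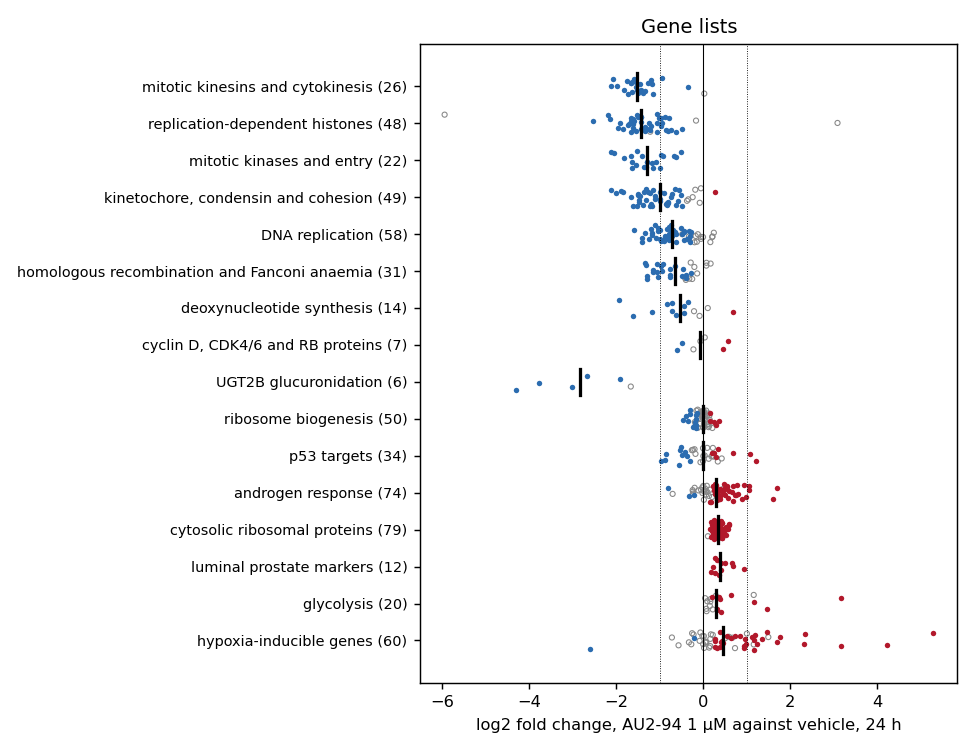
Log2 fold change (AU2-94 at 1 µM against vehicle, 24 h) of each tested member of 16 gene lists, 1 point per gene, with the number tested in brackets; red points rose and blue points fell at an adjusted p of at most 0.05, open points did not pass, the black bar is the list's median and dotted lines mark -1 and 1. The histone and mitosis lists sit at medians of -1.53 to -0.998, the replication list at -0.71, the UGT2B list at -2.84 and the hypoxia list at 0.44.

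The promoters of 5 cell cycle genes that fell are shown because they encode regulators and an enzyme whose transcripts fell, and their promoters are where E2F and MuvB factors are known to act. Sequences are from RefSeq (GRCh38.p14), 5′ to 3′ on the gene's strand, and run from 250 bases before the start to 50 bases after it. Capitals mark letters searched for on both strands: the E2F form TTCCCGC and its related forms TTCGCGC, further TTGCCGC, and also TTGGCGC, then the cell cycle homology region core TTTGAA (CHR, the site of the MuvB complex), and CCAAT.
CCNA2, chr4:121823834-121824133, minus strand: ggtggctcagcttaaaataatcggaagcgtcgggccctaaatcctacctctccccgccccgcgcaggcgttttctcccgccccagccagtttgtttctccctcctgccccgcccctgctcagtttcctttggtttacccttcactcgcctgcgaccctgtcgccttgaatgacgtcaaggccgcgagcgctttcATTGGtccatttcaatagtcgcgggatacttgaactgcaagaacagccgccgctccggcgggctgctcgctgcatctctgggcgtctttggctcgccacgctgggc
E2F1, chr20:33686336-33686635, minus strand: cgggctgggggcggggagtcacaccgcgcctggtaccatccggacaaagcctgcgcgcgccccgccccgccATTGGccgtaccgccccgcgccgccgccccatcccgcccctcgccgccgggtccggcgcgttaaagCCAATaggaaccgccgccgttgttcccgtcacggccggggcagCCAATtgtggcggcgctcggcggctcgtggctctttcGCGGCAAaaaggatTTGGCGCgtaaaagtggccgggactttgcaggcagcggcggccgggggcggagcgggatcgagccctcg
MYBL2, chr20:43666864-43667163, plus strand: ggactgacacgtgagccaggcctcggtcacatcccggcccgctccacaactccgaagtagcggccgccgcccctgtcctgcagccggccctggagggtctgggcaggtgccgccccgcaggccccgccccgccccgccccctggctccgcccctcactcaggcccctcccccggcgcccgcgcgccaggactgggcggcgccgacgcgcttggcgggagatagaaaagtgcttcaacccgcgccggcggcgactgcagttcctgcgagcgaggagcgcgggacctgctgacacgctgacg
CDK1, chr10:60778081-60778380, plus strand: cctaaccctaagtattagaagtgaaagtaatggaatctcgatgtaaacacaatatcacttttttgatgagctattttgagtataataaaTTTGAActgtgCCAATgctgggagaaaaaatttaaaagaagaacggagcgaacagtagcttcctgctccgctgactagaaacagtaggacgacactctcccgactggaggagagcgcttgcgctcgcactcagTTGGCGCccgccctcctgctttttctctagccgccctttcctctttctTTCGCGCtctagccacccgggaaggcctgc
TK1, chr17:78187155-78187454, minus strand: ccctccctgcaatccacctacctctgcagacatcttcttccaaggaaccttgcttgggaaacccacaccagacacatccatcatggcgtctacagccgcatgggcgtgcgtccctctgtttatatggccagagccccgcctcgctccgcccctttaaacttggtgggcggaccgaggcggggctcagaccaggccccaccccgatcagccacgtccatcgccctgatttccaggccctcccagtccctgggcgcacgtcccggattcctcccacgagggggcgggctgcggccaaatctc
The CDK1 window held 2 E2F matches, 1 CHR match and 1 CCAAT match, the E2F1 window 2 E2F and 3 CCAAT matches, and the CCNA2 window 1 CCAAT match. No match was found in the MYBL2 and TK1 windows with these exact letters. Other letters, such as TTGGCGG in the MYBL2 window, were not searched for.

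Over the 11513 tested genes with a promoter in RefSeq, 20.4% held an E2F form, 9.71% a CHR and 37.1% a CCAAT. Among the 279 genes called lower with a promoter these shares were 32.3% (90 genes), 30.8% (86 genes) and, for CCAAT, 148 genes, and among the 184 called higher they were 15.8%, 14.1% and 30.4%. An E2F form stood in 68.1% of the 47 DNA replication promoters and a CHR in 2.13%. In the 25 mitotic kinesin and cytokinesis promoters, by contrast, an E2F form stood in 9 and a CHR in 20. These shares describe letters in a window and were not tested. Matches to the overlapping E2F forms were counted once per promoter.

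The largest falls of any abundant genes were outside the cell cycle, in the UGT2B family, whose enzymes attach glucuronic acid to androgens and other steroids. Of 6 UGT2B genes tested, 5 fell and all 5 were called lower, with a median log2 fold change of -2.84. UGT2B11 was 1573, 1327 and 1229.6 in vehicle and 65.6, 65.8 and 74.3 with AU2-94 (log2 fold change -4.30, SE 0.155, adjusted p = 1.2e-12), a vehicle level 19.7 times the treated one. UGT2B28 was 290.2, 279.7 and 215 in vehicle and 18.4, 18.4 and 16.7 with AU2-94 (log2 fold change -3.79, SE 0.353, adjusted p = 2.32e-07). The enzymes known for inactivating dihydrotestosterone both fell: UGT2B15 fell from 3308, 3278 and 2881 to 433, 373 and 366 (log2 fold change -3.01, SE 0.0928, adjusted p = 2.38e-13) and UGT2B17 from 3421, 3533 and 3334 to 923, 877 and 904 (log2 fold change -1.93, SE 0.0688, adjusted p = 1.2e-12). UGT2B10 fell from 277, 241 and 234 to 63.5, 28.7 and 31.3 (log2 fold change -2.67), and UGT2B4, at 13.6, 24.3 and 13.8 and 5.33, 5.81 and 2.93, did not pass (adjusted p = 0.146). UGT2B11 (chr4:69199951-69214748), UGT2B28 (chr4:69280475-69295050), UGT2B15 (chr4:68646597-68670652) and UGT2B17 (chr4:68537173-68576413, all GRCh38) lie in 1 region of chromosome 4. Their transcripts are near copies, UGT2B28 matching UGT2B11 over 100% and UGT2B15 matching UGT2B17 over 86.0% of its length at 95% identity or more, so reads may have been split between them. UGT8, a galactosyltransferase of the same superfamily that makes myelin lipids, fell from 222, 253 and 182 to 11.8, 12.4 and 19.3 (log2 fold change -3.85, SE 0.375, adjusted p = 4.12e-07).

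Genes induced by androgen rose modestly. Of 74 androgen response genes tested, 47 rose, 3 fell, 4 were called higher and 0 were called lower, with a median log2 fold change of 0.29. KLK3, which encodes prostate-specific antigen, rose from 23132, 24802 and 22731 to 27722, 29772 and 29882 (log2 fold change 0.31, SE 0.0523, adjusted p = 0.000236). TMPRSS2 rose from 5672, 6056 and 5691 to 10043, 12189 and 10920.0 (log2 fold change 0.92, SE 0.0676, adjusted p = 1.06e-08). KLK2 rose by 0.66 (SE 0.0924) and FKBP5 by 0.34 (SE 0.0478), with no overlap between the groups in either. The 4 members called higher were NDRG1, MAF, TRPM8 and SGK1, and NDRG1 also belongs to the hypoxia list below. MAF was 738, 795 and 711 in vehicle and 2364, 2254 and 2184 with AU2-94 (log2 fold change 1.6, SE 0.0635, adjusted p = 4.82e-12). SGK1, a low gene at 34.6, 51.2 and 60.2 and 147, 92.1 and 70.3, had a log2 fold change of 1.04 (adjusted p = 0.0158) and did not pass without treated replicate 1 (0.0967) or vehicle replicate 1 (0.0846). All 12 luminal prostate markers rose (median 0.38), KLK3, KLK2 and TMPRSS2 being among them.

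**Figure D4:**
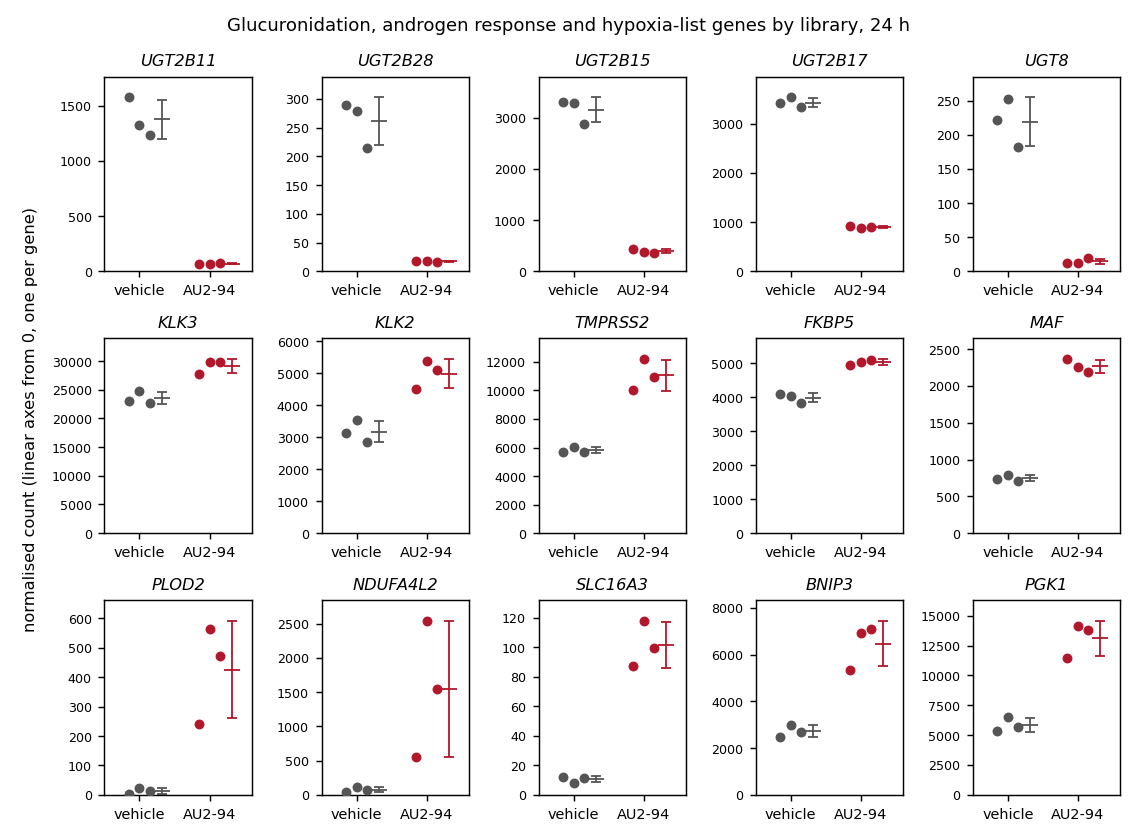
Normalised counts of 5 glucuronosyltransferase or galactosyltransferase genes, 5 androgen response genes and 5 genes of the hypoxia list in the 3 vehicle (grey) and 3 AU2-94 (red) libraries of 24 h, in replicate order, with the mean and SD (n = 3) beside them on linear axes from 0. The transferase genes are lower and the other genes higher in all treated libraries, and in the bottom row treated replicate 1 is the lowest of the 3.

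Genes known to respond to low oxygen included the largest rises. Of 60 hypoxia-inducible genes tested, 31 rose, 2 fell, 14 were called higher and 1 was called lower, with a median log2 fold change of 0.44. PLOD2, a collagen lysyl hydroxylase, was 2.08, 24.1 and 13.3 in vehicle and 242, 564 and 472 with AU2-94 (log2 fold change 5.28, SE 0.732, adjusted p = 2.79e-05). Its log2 fold change was 4.41 without vehicle replicate 1, 5.92 without vehicle replicate 2 and 4.41 to 5.92 over all libraries left out in turn. NDUFA4L2, a mitochondrial protein induced by hypoxia, was 41.1, 113 and 70.3 in vehicle and 556, 2538 and 1548 with AU2-94 (log2 fold change 4.22, SE 0.686, adjusted p = 0.000146), and 4.83 without treated replicate 1. SLC16A3, a lactate exporter, rose from 11.8, 8.07 and 11.5 to 87.3, 118 and 99.8 (log2 fold change 3.17, SE 0.524, adjusted p = 0.00017). Higher in abundance, BNIP3, which marks mitochondria for removal, rose from 2494, 3007 and 2676 to 5357, 6942 and 7113 (log2 fold change 1.24, SE 0.187, adjusted p = 6.93e-05) and the glycolytic enzyme PGK1 from 5362, 6494 and 5683 to 11421, 14110.0 and 13767 (log2 fold change 1.16, SE 0.179, adjusted p = 8.65e-05). NDRG1 rose from 1368, 1651 and 1271 to 3414, 6241 and 4595 (log2 fold change 1.70, SE 0.271, adjusted p = 0.000119), and the prolyl hydroxylase P4HA1 from 864, 949.6 and 886 to 1796, 2166 and 2162 (log2 fold change 1.18). The member called lower was BHLHE41, a circadian repressor, at 38.0, 5.79 and 19.8 in vehicle and 1.18, 2.47 and 2.28 with AU2-94, which was chosen for mention after its values were seen. No member was called lower without treated replicate 1, vehicle replicate 1 or vehicle replicate 3. The letters ACGTG, the core of the hypoxia response element, stood in 52.3% of the 44 promoters of the list found in RefSeq, against 26.6% of all tested. Among all genes called higher the share was 23.9% of 184 promoters, and among those called lower 21.9% of 279. These shares were not tested as differences. Of 20 glycolysis genes, 10 rose and 0 fell (median 0.30), ALDOC rising by 1.47 (SE 0.192) and LDHA by 0.63 (SE 0.143).

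The order of the replicates was uneven in the hypoxia genes. Treated replicate 1 was the lowest of the 3 treated libraries in 25 of the 31 hypoxia genes that rose and treated replicate 2 the highest in 25, against 30.7% and 29.7% of all 2305 genes that rose. In vehicle, replicate 2 was the highest in 21 of the 31, against 35.7%, and replicate 1 the lowest in 17, against 36.2%. The list's summed level was 102910, 110140 and 101730 in the vehicle libraries and 134560, 169900 and 155400 with AU2-94, so the groups did not overlap. With the replicate number as a block, 14 members were again called higher and 31 rose. Leaving out 1 library at a time gave 11 to 18 called higher and 23 to 32 that rose. The part of the batch in this variation was not tested.

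Outside these lists the largest rises came from genes of low abundance. OR51E1, an olfactory receptor expressed in prostate, rose from 35.1, 28.5 and 20.3 to 184, 256 and 246 (log2 fold change 3.00, SE 0.235, adjusted p = 2.37e-08). RLN2, the hormone relaxin, rose from 40.4, 38.3 and 35.2 to 224, 162 and 189.8 (log2 fold change 2.30, SE 0.145, adjusted p = 1.78e-09), and BMX, a tyrosine kinase, from 36.9, 45.2 and 51.7 to 212, 217 and 211 (log2 fold change 2.25, SE 0.171, adjusted p = 1.72e-08). ANGPT2, a vessel-acting ligand, rose from 27.4, 43.7 and 30.6 to 121, 167 and 136 (log2 fold change 2.04, SE 0.448, adjusted p = 0.0021). The sodium channel subunit SCNN1G (48.0, 178 and 93.9 with AU2-94), the peptidase NAALAD2 (83.2, 138 and 222) and the kinase anchor AKAP12 (107, 399 and 274) rose with wide spreads between the treated libraries. Without treated replicate 2 or 3 or vehicle replicate 1 the call on AKAP12 was lost, with an adjusted p of up to 0.0729. The most abundant genes called higher were more even: AIDA, an axin-binding protein, rose from 8226, 8191 and 7711 to 19772, 18896 and 20472 (log2 fold change 1.29, SE 0.0413, adjusted p = 2.94e-13), the potassium channel KCNN2 from 2991, 3004 and 2932 to 6793, 7333 and 6845 (log2 fold change 1.23, SE 0.0374, adjusted p = 2.38e-13) and BTG1, an antiproliferative gene, from 2064, 2025 and 2074 to 4621, 4800.1 and 4814 (log2 fold change 1.21, SE 0.0618, adjusted p = 1.44e-10).

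Among the largest falls outside the UGT2B family, 3 genes belong to cell division. IQGAP3, a scaffold of dividing cells, fell from 1339, 1379 and 1443 to 254, 282 and 275 (log2 fold change -2.36, SE 0.172, adjusted p = 1e-08). PIF1, a DNA helicase, fell from 270.5, 322 and 329 to 46.7, 88.0 and 49.7 (log2 fold change -2.36, SE 0.403, adjusted p = 0.00024), and GPSM2, which orients the spindle, from 707, 802 and 737 to 177, 164 and 161 (log2 fold change -2.16, SE 0.256, adjusted p = 4.76e-06). GPSM2 shares 27.9% of its exon bases with CLCC1 on the opposite strand. CRIM1, a membrane protein that binds growth factors, fell from 189, 60.9 and 102 to 20.1, 20.2 and 14.9 (log2 fold change -2.47, SE 0.554, adjusted p = 0.00252) with a wide spread in vehicle.

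Ribosomal protein genes shifted slightly but together. Of 79 genes, 78 rose and 0 fell, none reaching the threshold of 1, with a median log2 fold change of 0.35. RPS26 did not pass. RPL13A rose from 37357, 39045 and 37393 to 58245, 54908 and 57091 (log2 fold change 0.58, SE 0.0383, adjusted p = 2.85e-09). Under quantile normalisation 62 rose. Genes of ribosome biogenesis did not move with them: of 50, 5 rose and 13 fell (median -0.02), with NOP56 at -0.36. Of 76 nuclear genes of the respiratory chain, 33 rose and 1, SDHA, fell (median 0.13), SDHA not passing without vehicle replicate 3 (adjusted p = 0.0538). Of the 13 mitochondrial genes, 3 rose and 1 fell (median 0.02). Among those that rose, MT-CO3 lost its pass in 11 of 16 alternatives, MT-CO2 in 7 and MT-CO1 in 1. MT-ND6, which fell, lost its pass in 5 of 16 (adjusted p up to 0.139). MT-CO3, at 0.12 (adjusted p = 0.0466), turned to -0.12 under quantile normalisation and had an adjusted p of 0.0508 with the replicate number as a block.

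At 2 µM, AU2-94 gave lower values than 1 µM for a small number of genes, most of them of the cell cycle. In the direct contrast of 2 µM with 1 µM at 24 h, 1 gene (0.0062%) was called higher and 0 lower. By the adjusted p alone 4 genes (0.0248%) were higher and 62 (0.384%) lower at 2 µM, and 1314 genes (8.14%) had an unadjusted p of at most 0.05. The gene called higher was CCDC144A, whose mean was under 50. Of the 62 lower genes, 21 were on the histone list, to which H3C15 adds 1 that the list lacks. In all, 42 belonged to the replication, histone, mitosis or repair lists, whose sizes are given above. MKI67 was 2179.7, 2296 and 2469 at 1 µM and 1545, 1436 and 1699 at 2 µM (log2 difference -0.57, 95% interval -0.74 to -0.40, adjusted p = 0.0023). E2F1 was 694, 651 and 649.9 at 1 µM and 429, 523 and 524 at 2 µM (log2 difference -0.44, 95% interval -0.62 to -0.26, adjusted p = 0.0285). Outside the cell cycle, 0 of the 6 UGT2B, 74 androgen response, 60 hypoxia and 79 ribosomal protein genes passed in either direction. UGT2B11 was 76.6, 70.0 and 51.5 at 2 µM, with an interval of -0.40 to 0.26 for its log2 difference from 1 µM, and KLK3 had an interval of -0.02 to 0.20.

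Atirmociclib at the same dose and time lowered proliferation genes more than AU2-94 did. In the direct contrast of atirmociclib 1 µM with AU2-94 1 µM at 24 h, the only pair of compounds compared, 4 genes (0.0248%) were called higher and 150 (0.93%) lower with atirmociclib, and 239 (1.48%) and 510 (3.16%) passed the adjusted p. With the replicate number as a block 2 and 148 were called. Of the 510, 174 belonged to the replication, histone, mitosis or repair lists, whose sizes are given above. Histone genes stood furthest apart, 43 of 48 being lower (median difference -1.29), followed by mitotic kinesins and cytokinesis (21 of 26, -1.04), mitotic kinases (18 of 22, -0.71) and DNA replication (40 of 58, -0.67). CCNA2 was 364, 416 and 433 with AU2-94 and 96.0, 121 and 104 with atirmociclib (log2 difference -1.91, SE 0.141, adjusted p = 3.87e-08). E2F1 was 694, 651 and 649.9 and 308, 325 and 311 (log2 difference -1.07, SE 0.0861, adjusted p = 1.18e-07). The largest differences among genes with a mean of at least 50 were those of H1-5 (-3.22), CLSPN (-2.95) and H2BC14 (-2.92), with H1-5 at 242, 269 and 219 under atirmociclib.

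For some mitotic genes no difference between the compounds was detected. CCNB1 was 1131, 1204 and 1085 with atirmociclib, a log2 difference of -0.12 with a 95% interval of -0.26 to 0.03, and PTTG1, the securin gene, had an interval of -0.42 to 0.01. Outside the cell cycle, 0 of 6 UGT2B genes and 0 of 79 ribosomal protein genes passed, whereas 9 of 32 cholesterol synthesis and SREBP target genes were higher and 1 lower with atirmociclib, and 5 of 74 androgen response genes were higher and 1 lower. The largest difference of the former was that of LSS, a sterol cyclase (0.45, adjusted p = 0.000409), which was chosen for mention after its values were seen. UGT2B11 was 69.5 ± 5.04 (SD, n = 3) with atirmociclib (interval -0.31 to 0.35) and UGT2B15 369.9, 379 and 362 (interval -0.27 to 0.12). KLK3 had an interval of 0.04 to 0.26 (adjusted p = 0.131), and TMPRSS2 was higher with atirmociclib, at 14599, 14983 and 14641 (log2 difference 0.42, adjusted p = 0.000668). For PLOD2 the interval was wide, at -1.42 to 1.66, so a difference of 2-fold either way was not detectable. BMX was lower with atirmociclib (-0.66, adjusted p = 0.0334). Among the 4 genes called higher, CCNB3 (1.62) lost its call in 7 of the alternatives, and ENSG00000269889 (1.06) was the other with a mean of at least 50 over the libraries contrasted.

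At 72 h the effect of AU2-94 at 1 µM on the cell cycle was smaller than at 24 h, while seeding density differed with the time point, so time and density cannot be told apart. The difference of the 2 effects was tested in 1 fit of all 36 libraries over 16850 genes, in which 487 genes (2.89%) were called higher and 83 (0.493%) lower at 72 h, against 355 and 163 under quantile normalisation. By the adjusted p alone the effect was higher at 72 h in 10.1% and lower in 11.5% of genes. The mitotic kinesins and cytokinesis list had 22 of 26 genes with a less negative effect at 72 h (median difference 0.91), the mitotic kinases 17 of 22 (0.76), histones 18 of 48 (0.38) and DNA replication 13 of 58 (0.22). CCNA2 was 1458, 1539 and 1499 in vehicle and 842, 849 and 767 with AU2-94 at 72 h, an effect of -0.87 beside -1.91 at 24 h (difference 1.04, adjusted p = 1.02e-05). For E2F1 no such shift was detected, its effect being -0.70 at 72 h and -0.60 at 24 h (adjusted p = 0.546). The UGT2B genes were still low, UGT2B11 at 1078, 1172 and 1041 in vehicle and 157, 163 and 159 with AU2-94, with an effect of -2.77 beside -4.30.

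Other groups changed in their own ways between the time points. All but 1 of the 79 ribosomal protein genes had a lower effect at 72 h than at 24 h (78 genes, median difference -0.46). The vehicle libraries of 24 h and 72 h enter these differences with the treated ones. In the androgen response list, 10 genes had a higher and 30 a lower effect at 72 h, and KLK3 was among the former, with an effect of 1.21 at 72 h and 0.31 at 24 h. Of 60 hypoxia genes, 2 had a higher and 2 a lower effect. The largest differences among genes with a mean of at least 50 were those of FOS (-4.39), ID1 (-3.44) and CRYBG2 (-2.55) towards lower effects and of UGT8 (3.14), TNS1 (3.04) and ANGPT2 (2.72) towards higher ones. The CRYBG2 difference did not pass in 4 of 21 alternatives (adjusted p up to 0.075). FOS, an immediate early gene, was 24.1, 7.02 and 15.1 in vehicle and 18.2, 96.1 and 58.9 with AU2-94 at 24 h, which did not pass (adjusted p = 0.12), and 182, 289 and 235 and 38.8, 44.9 and 24.9 at 72 h. ID1, a BMP target, rose from 560.2, 591 and 685 to 908, 833 and 861 at 24 h (log2 fold change 0.51, SE 0.097, adjusted p = 0.000676), but was 504, 540.1 and 529.5 in vehicle and 56.4, 69.5 and 79.7 with AU2-94 at 72 h.

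**Figure D5:**
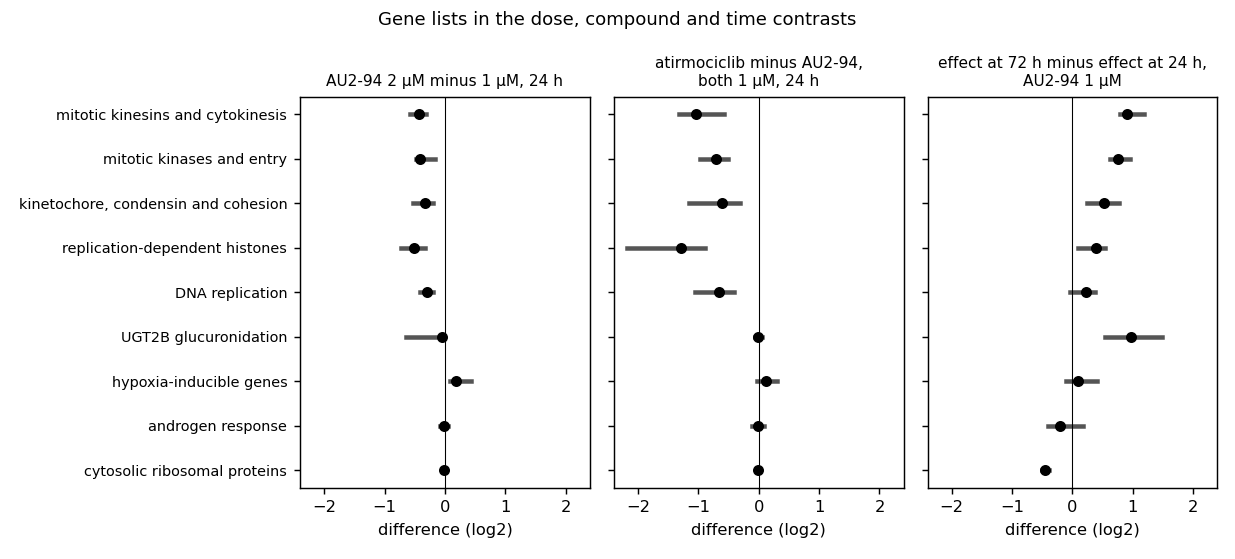
Median (point) and interquartile range (bar) over the tested members of 9 gene lists of the log2 difference between AU2-94 at 2 µM and 1 µM (left), between atirmociclib and AU2-94 at 1 µM (middle), both at 24 h, and between the effects of AU2-94 at 1 µM at 72 h and 24 h (right). Histone genes have medians of -0.51 at the higher dose and -1.29 with atirmociclib, while the UGT2B, androgen response and ribosomal protein lists are near 0 in the left and middle panels; all 3 contrasts share the libraries treated at 1 µM for 24 h.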

How the data were processed

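RNA from LNCaP cultures was analysed from 1 deposited table of 36 libraries. The authors ran the nf-core/rnaseq pipeline with STAR 2.6.1d against GRCh38 and DESeq2, and deposited a normalised count per gene (a signal scaled between libraries by the authors, not whole reads). The annotation release, the counter and its strand setting are not given in the sources used here. The totals per library are sums of these normalised counts and do not give sequencing depth. Raw read numbers were not recovered. Groups came from the labels.

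Genes with at least 10 normalised counts in at least 3 libraries were fitted with limma 3.58.1 (R 4.3.3, lmFit and eBayes with trend, two-sided) on log2(value + 1), with all 18 libraries of 24 h in 1 fit and all 36 for the time difference, and Benjamini-Hochberg adjustment over all genes. Design and contrasts had no block. The script was tested on simulated data. Named genes were key genes of any mean and, with a mean of at least 50, the 10 largest changes each way and up to 4 per list. The 3 largest each way per other contrast, at that mean, and the 5 most abundant called each way were added. Other called members of a list are named in places whatever their mean. The members and lists were chosen with earlier results of these data known. Exon overlap came from GENCODE 44 and transcript likeness from BLAST+ 2.17.0.

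The labels give the replicate number as a batch, so same-numbered libraries were taken as paired in the block alternative. Deviations from group means correlated across genes at -0.0205 to 0.0124 over the 3 pairs of AU2-94 and vehicle. Alternatives covered the added constant, the filter, the scaling, the spread, the block and leaving out each library.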

Additional observations from a re-analysis of the deposited data

Results flagged for a closer look

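Of 176 named genes tested over time, 32 had an effect of AU2-94 at 1 µM that differed between 72 h and 24 h at an adjusted p of at most 0.05 (limma) and by at least 1 on the log2 scale. Over all 16850 genes, 487 (2.89%) were called higher and 83 (0.493%) lower at 72 h. Many of the 176 were named for large changes at 24 h, and some for this same difference. Their count therefore cannot be set against these shares. Each value below is the effect at 72 h minus the effect at 24 h, and seeding density differed with the time point. In 7 of the 32 genes the effect was lower at 72 h, namely FOS (-4.39), ID1 (-3.44), CRYBG2 (-2.55), DUSP2 (-1.30), SMAD9 (-1.29), BMX (-1.18) and ACTA2 (-1.12). The CRYBG2 difference did not pass in 4 of 21 alternatives. In 25 genes the effect was higher.

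Genes of cell division made up most of the latter, many of them named because they fell far at 24 h. Of all 487 genes called higher at 72 h, 21 belonged to the replication, histone, mitosis or repair lists. Among the flagged kinesin, scaffold and cytokinesis genes were IQGAP3 (1.91), CKAP2L (1.62), KIF20A (1.53), KIFC1 (1.31) and MKI67 (1.26). Among the kinetochore and spindle genes were GPSM2 (1.65), ESPL1 (1.41), SPC25 (1.39), CENPA (1.36), PTTG1 (1.27) and TOP2A (1.21). The kinases PLK1 (1.37) and AURKB (1.26), cyclin gene CCNA2 (1.04), helicase gene PIF1 (1.93), chromatin gene HMGB2 (1.00) and repressor gene MXD3 (1.05) were also higher.

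The glycosyltransferase genes UGT8 (3.14), UGT2B28 (1.54), UGT2B11 (1.53) and UGT2B15 (1.35) had less negative effects at 72 h. The remaining genes were TNS1 (3.04), ANGPT2 (2.72), OR51E1 (2.69) and the phosphatase gene DUSP4 (1.44).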

How the results depend on the processing

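For AU2-94 at 1 µM against vehicle, 259 genes were called higher and 387 lower. A constant of 8 in place of 1 gave 165 higher, and a minimum mean of 100 gave 78 higher and 221 lower, since fewer genes were then tested. Leaving out 1 library at a time gave 226 to 254 higher and 330 to 381 lower.

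At 2 µM against 1 µM, where 1 gene was called higher and 0 lower, no filter gave 2 and 2, while a minimum mean of 100, only the groups contrasted, and no trend each gave 0 higher. Leaving out 1 library gave 0 to 2 higher and 0 to 5 lower, the 5 without replicate 3 at 2 µM. For atirmociclib against AU2-94, where 4 were called higher, the values were 8 without a filter, 0 at a minimum mean of 100, 7 under quantile normalisation, 2 with the replicate block and 2 with only the groups contrasted, and 3 to 7 when 1 library was left out. For the change with time, a minimum mean of 100 gave 220 higher and 30 lower, and quantile normalisation 163 lower. With the replicate number as a block, the main counts were 259 and 384, MT-CO3 no longer passed the adjusted p, and every other named gene that passed in the main comparison still did.

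Over 187 single gene effects and 3002 alternative values, 2892 kept their direction and side of the threshold, 100 no longer passed the adjusted p, 1 newly passed (FOS without treated replicate 1, 2.37, adjusted p = 0.0484 in limma) and 9 changed sign. The changed signs were CDK4 with equal totals (-0.00704) and without treated replicate 3 (-0.0177), CDK6 without treated replicate 3 (0.30) or vehicle replicate 1 (0.29), EGR1 without treated replicate 2 (0.0173), MT-CO3 under quantile normalisation (-0.12), CCNB3 without treated replicate 1 (0.10), and TNS1 without treated replicate 3 (0.26) or vehicle replicate 2 (0.26). Leaving out 1 library gave -0.0177 to 0.0634 for CDK4, -0.98 to 0.30 for CDK6, -0.43 to 0.0173 for EGR1, -0.85 to 0.10 for CCNB3 and -0.62 to 0.26 for TNS1. Apart from MT-CO3 these genes had not passed the test. The cause of these changes was not tested. With 3 cultures of 1 line per group, low genes had wide intervals, and normalised counts gave no depth in reads.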

Other observations

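Further gene groups moved in mixed directions or mostly upward by small amounts with AU2-94 at 1 µM for 24 h. Over all genes tested, 14.3% rose and 13.5% fell, and the counts below were not tested against these shares. Of 34 p53 target genes, 7 rose and 10 fell (median log2 fold change -0.00433), and those called higher were SESN1 (1.08) and BTG1 (1.21). Of 32 ER stress and ATF4 genes, 12 rose and 10 fell, and SLC7A5, an amino acid transporter, was called lower (-1.501). Cholesterol synthesis and SREBP targets gave 11 that rose and 2 that fell of 32 (median 0.11). Lysosome and autophagy genes gave 12 and 2 of 30 (median 0.135).

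Antigen presentation genes rose in 6 of 14 cases and fell in 1 (median 0.27). Of 38 interferon response genes, 6 rose and 5 fell, with OAS3 (-1.12) called lower and PARP14 called higher (1.38). IFI27 (-1.81) and CMPK2 (-1.22) were also called lower, at low mean counts of 6.725 and 26.95 over the 6 libraries. In the senescence list 3 of 12 genes rose and 5 fell, LMNB1 (-1.21) and HMGB2 (-1.71) being called lower and TNFRSF10C (1.27) higher. BCL2, the survival gene, was called lower (-1.09) but did not pass in limma without treated replicate 2 (adjusted p = 0.0506) or vehicle replicate 2 (0.09), while 3 of the 14 genes of its family rose and 3 fell. Of 9 DNA methylation genes, 2 rose and 3 fell, UHRF1 being called lower (-1.17). The 2 that rose, TET1 and DNMT3A, did not pass in 8 and 4 of 16 alternatives. Of 11 genes of the MYC, MAX and MXD network, 3 rose and 1 fell, MXD3 (-1.56). Among 10 collagen hydroxylase and lysyl oxidase genes, 3 rose and were called higher (PLOD2, P4HA1 and LOX) and 1 fell. LOX had a low mean count of 12.7. Of 27 immediate early genes, 4 rose and 4 fell, and of 10 ID and BMP feedback genes 2 rose and 1 fell. Of 8 neuroendocrine and neuronal genes, 2 rose and 1 fell, and NTS, a low gene, was called higher (3.49).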
